A study of Mus musculus with 2 samples.

Results

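The immunoproteasome and the machinery that loads peptides onto MHC class I were followed through 10 of the 55357 genes in the count matrices, taken by name. They are the inducible proteasome subunits Psmb8, Psmb9 and Psmb10, the proteasome activator subunits Psme1 and Psme2, the transporter subunits Tap1 and Tap2, tapasin (Tapbp), the peptidase Erap1 and the transactivator Nlrc5. All 10 were found by symbol in both libraries. The samples were live CD45-positive cells sorted from lungs of C57 mice bearing metastases of B16F10, a mouse melanoma line. In 1 library the tumour cells carried IRF7 with the C435A change (C435A), and in the other they carried wild-type IRF7 (WT). The genotype is that of the injected melanoma line, not of the immune cells, and both groups share the line, the strain and the sort. The labels give the cell type of both samples as melanoma cell although immune cells were sorted, and they do not say how many mice went into a library. The counts are per gene and hold no codon, so the genotype could not be checked against the data.

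Proteasomes cut cytosolic proteins into peptides, and in immune cells or under interferon the catalytic subunits PSMB5, PSMB6 and PSMB7 are replaced in new particles by PSMB8, PSMB9 and PSMB10. PSME1 and PSME2 form the PA28 cap that opens the particle, TAP1 and TAP2 carry the peptides into the endoplasmic reticulum, ERAP1 trims them there, and tapasin bridges the transporter and the empty class I molecule. NLRC5 drives transcription of class I genes and of several of these partners, and interferon gamma, acting in part through IRF1, is the classical inducer of the set.

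Psmb9, Tap1, Psmb8 and Tap2 lie side by side in the MHC. On GRCm38 (GENCODE M21), Psmb9 lies at chr17:34181987-34187764 on the minus strand, followed on the plus strand by Tap1 at chr17:34187553-34197225, Psmb8 at chr17:34197721-34201454 and Tap2 at chr17:34203527-34216321, and Tapbp lies at chr17:33915899-33929292 on the plus strand. Psme1 (chr14:55578123-55581529, plus strand) and Psme2 (chr14:55587441-55591113, minus strand) are neighbours on chromosome 14. Psmb10 (chr8:105935735-105938444, minus strand) and Nlrc5 (chr8:94434356-94527272, plus strand) are on chromosome 8 and Erap1 (chr13:74639568-74693201, plus strand) is on chromosome 13. Promoter windows of 300 bases from RefSeq (GRCm38.p6) were at hand for 8 of the 10 genes, not for Tap2 and Nlrc5. Psmb9 and Tap1 are printed as 1 window because they are transcribed away from each other from start sites 226 bases apart, and their windows share 275 bases on opposite strands. The Tap1 window is chr17:34187306-34187605 on the plus strand, and capitals mark the 225 bases between the start sites.
Psmb9 and Tap1: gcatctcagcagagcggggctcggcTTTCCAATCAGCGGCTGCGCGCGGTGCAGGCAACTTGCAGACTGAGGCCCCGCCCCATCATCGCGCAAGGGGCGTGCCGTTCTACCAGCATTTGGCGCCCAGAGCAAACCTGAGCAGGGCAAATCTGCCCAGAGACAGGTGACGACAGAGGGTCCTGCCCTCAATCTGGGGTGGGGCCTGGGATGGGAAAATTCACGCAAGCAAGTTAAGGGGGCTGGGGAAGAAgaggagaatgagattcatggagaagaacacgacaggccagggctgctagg
The windows were searched on both strands for the core of the interferon-stimulated response element (GAAA and GAAA with any 2 bases between them), for the interferon gamma-activated site (GAS) TTCNNNGAA and for the kappa B element (GGGA and TTCC with any 2 bases between them). Of the 32851 windows in the table, 3.44%, 8.3% and 1.47% hold them. Psmb8 held 1 GAS match, Erap1 and Psme1 held 1 match each to the response element core on the opposite strand, and none of the 3 motifs matched in the Psmb9 and Tap1 windows or in those of Psmb10, Psme2 and Tapbp. The 3 matches are shown in capitals with 20 bases on each side. They lie at chr17:34198078-34198126 (Psmb8), chr13:74639829-74639878 (Erap1) and chr14:55578483-55578532 (Psme1), all on the plus strand.
Psmb8: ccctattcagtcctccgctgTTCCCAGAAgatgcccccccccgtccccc
Erap1: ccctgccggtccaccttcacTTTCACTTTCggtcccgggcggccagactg
Psme1: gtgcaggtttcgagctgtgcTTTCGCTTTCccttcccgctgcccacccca

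After filtering and removal of predicted doublets, 9427 cells with 50269416 UMIs remained in the C435A library and 9199 cells with 46523362 UMIs in the WT library, with medians of 3200.0 and 2684 UMIs per cell. A UMI is a tag that marks 1 captured RNA molecule. The libraries shared 24 cell barcodes. Cells were gated by marker UMIs into 17 types. Of these, 7 immune types had at least 200 cells in each library (CD8 T, CD4 T, other T, NK, B, neutrophil and alveolar macrophage), 8 had at least 20, melanoma among them with 56 and 99 cells, and cDC1 and basophil and mast cells had fewer. Those with fewer are left out of the orders of types below unless named. In each of the 15 types with at least 20 cells every marker of its own panel was detected in both libraries. Levels are CPM, the summed UMIs of a gene in a type as counts per fixed total of UMIs in that type, and they compare types, not genes. With 1 library per genotype no test between genotypes was possible, so brackets hold exact 95% intervals that cover counting error only. Differences between mice, sorts or captures cannot be told apart from the tumour genotype.

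**Figure D1:**
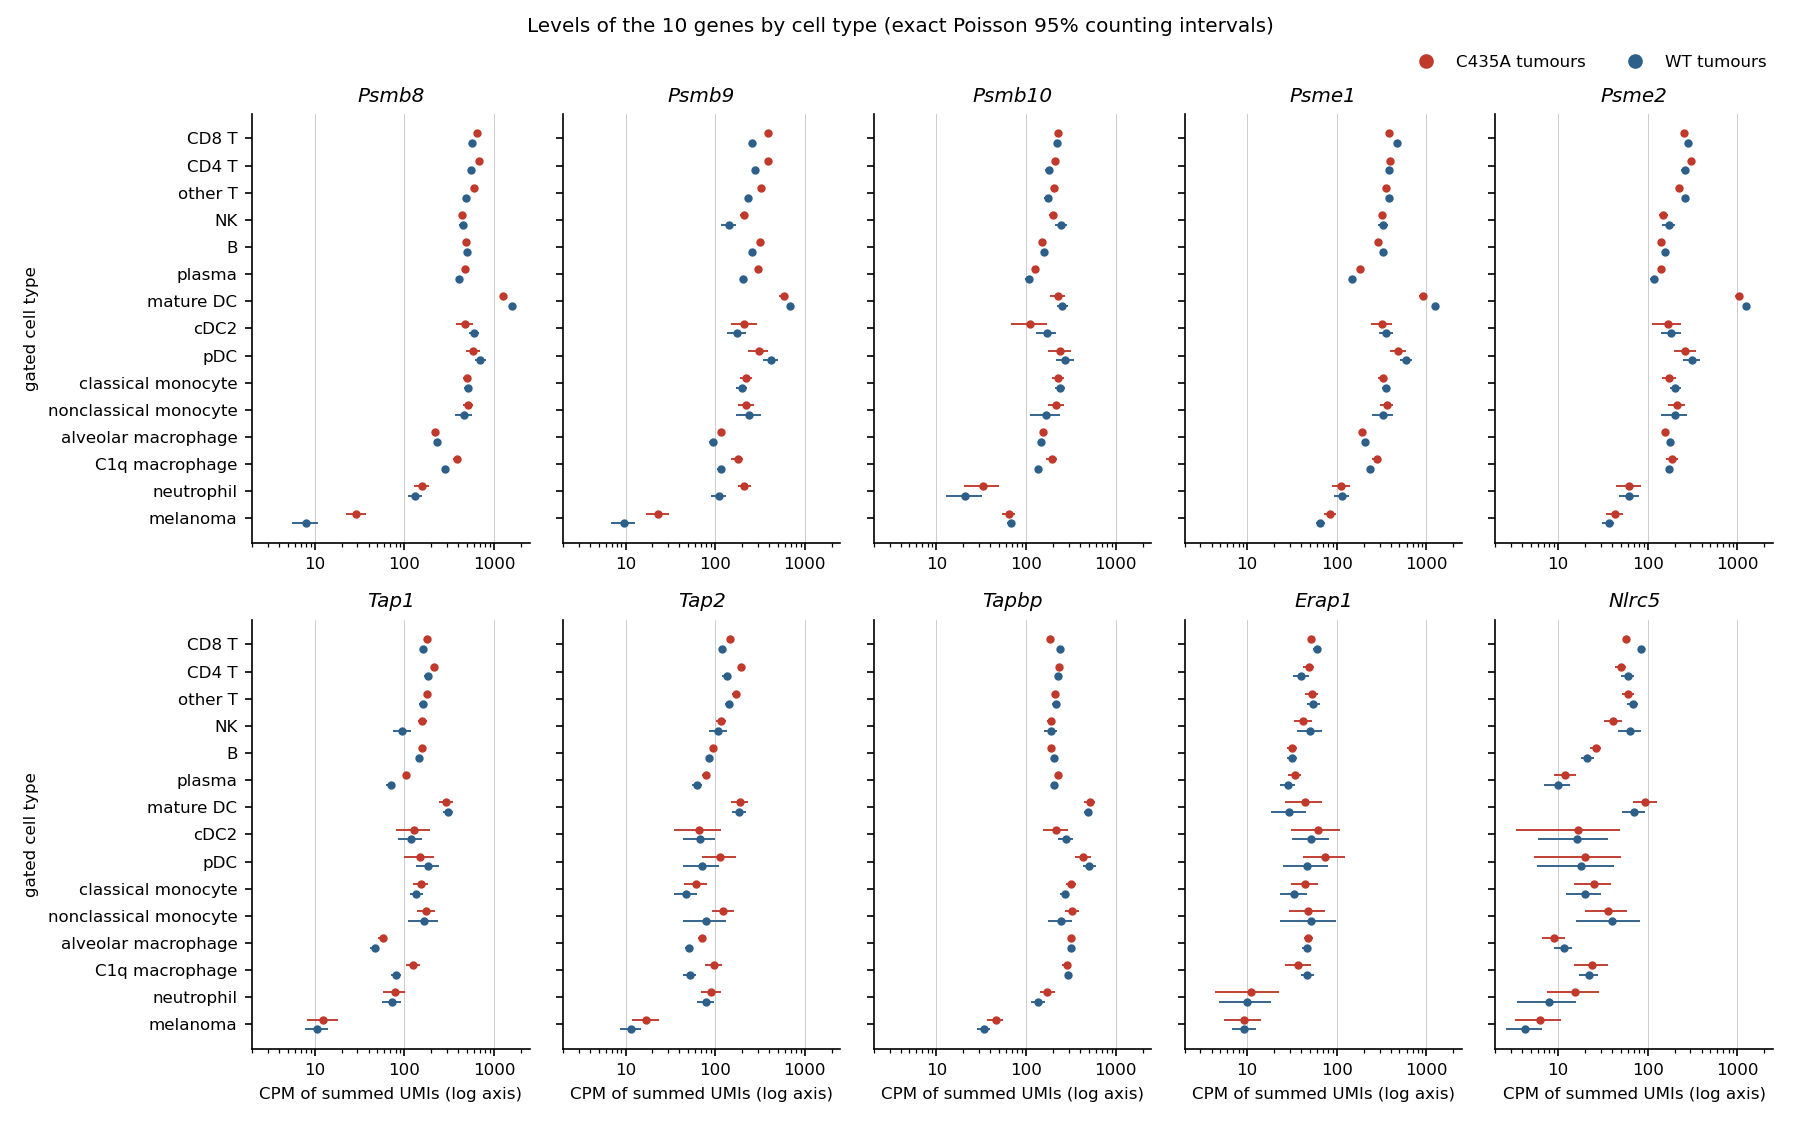
CPM of summed UMIs of each of the 10 genes (log axis) in the 15 gated types, with C435A points above WT points and bars for exact Poisson 95% intervals. Mature DCs were highest in both libraries for Psmb8, Psmb9, Psme1, Psme2 and Tap1, and melanoma cells were lowest for all genes but Psmb10, for which neutrophils were lower.

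Of the 3 inducible catalytic subunits, Psmb8 and Psmb9 were highest in mature dendritic cells and Psmb10 in plasmacytoid dendritic cells (pDCs), and all 3 were lowest or next to lowest in melanoma cells. Psmb8, which replaces the chymotrypsin-like subunit, was at 1270.4 [1167, 1381] CPM in mature DCs of the C435A library and 1601 [1509, 1696] CPM in those of the WT library. The next types were CD4 T cells in the C435A library (680.1 [653, 708] CPM) and pDCs in the WT library (705 [609.6, 811] CPM), so mature DCs stood clear of every other type. Below them most neighbours overlapped within their intervals down to NK cells, except that CD4 and CD8 T cells of the C435A library stood above other T cells. C1q macrophages (386 CPM in C435A and 287 CPM in WT), alveolar macrophages (219 and 232 CPM), neutrophils (156 and 132 CPM) and melanoma cells (29.0 and 8.001 CPM) followed in that order, and from C1q macrophages on each step exceeded the intervals in both libraries. Psmb9, the inducible caspase-like position subunit, had the same top type among those with at least 20 cells, at 582 [513, 659] CPM in C435A and 692 [633, 756] CPM in WT mature DCs. Its lowest immune type was the alveolar macrophage, at 117 and 93.7 CPM. For Psmb10, the inducible trypsin-like subunit, between pDCs (238 CPM in C435A and 273 CPM in WT) and B cells (150.0 and 158 CPM) most neighbours overlapped. Neutrophils stood apart at 32.8 CPM in C435A and 20.9 CPM in WT, under the 64.2 and 68.1 CPM of melanoma cells. The few cDC1 cells, 7 and 5, had point values above mature DCs in Psmb9, at 793 [608, 1017] CPM in C435A and 879.6 [666, 1139.7] CPM in WT. Their intervals overlapped those of mature DCs in both libraries, and 1 cell held 35.5% of their Psmb9 UMIs in C435A and 40.4% in WT.

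The PA28 genes were also highest in mature DCs. Psme1 was at 914 CPM in C435A and 1249 CPM in WT mature DCs, and Psme2 at 1033 and 1256 CPM. For Psme2 the next type was CD4 T cells in the C435A library (304 CPM) and pDCs in the WT library (313 CPM), and the highest immune type exceeded the lowest, neutrophils, 16.5-fold and 20.3-fold, the widest range among the 10 genes in both libraries. Psme2 has a near-identical copy, Psme2b, which was counted at 908 UMIs in C435A and 757 in WT against 10161 and 9270 for Psme2, so its level is uncertain by the reads the counting could split.

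The transporter genes were highest in mature DCs and T cells. Tap1 reached 292 [244, 348] CPM in C435A and 308 [269, 352] CPM in WT mature DCs, above all other types with at least 20 cells. The few cDC1 cells overlapped them, at 269 [166, 411] CPM in C435A and 247 [141, 401] CPM in WT. Tap1 was lowest among immune types in alveolar macrophages (57.3 and 47.2 CPM). Tap2 was led by CD4 T cells in the C435A library (196 CPM, overlapping mature DCs at 189 CPM) and by mature DCs in the WT library (185 CPM, overlapping other T cells at 141 CPM). Classical monocytes held the least Tap2 among immune types, 61.6 CPM in C435A and 47.4 CPM in WT.

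Tapasin, Erap1 and Nlrc5 followed other orders. Tapbp was highest in mature DCs and pDCs, whose intervals overlapped, at 513 and 436 CPM in the C435A library and at 495 and 511 CPM in the WT library. Alveolar macrophages, low in both subunits of the transporter, held 315 CPM of Tapbp in C435A and 321 CPM in WT, above CD8 T cells at 187 and 241 CPM. Erap1 ran from 10.9 CPM in neutrophils to 74.4 CPM in pDCs of the C435A library and from 9.97 CPM in neutrophils to 59.6 CPM in CD8 T cells of the WT library. Apart from the step down to neutrophils, all neighbours in its order overlapped in both libraries. Nlrc5 was highest in T cells, NK cells and mature DCs. Those 5 types held 41.4 to 94.4 CPM in the C435A library and 60.1 to 83.9 CPM in the WT library, while plasma cells held 12.1 and 9.85 CPM and alveolar macrophages 8.99 and 11.5 CPM.

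The inducible subunits were set against the standard subunits they replace, as a ratio of UMIs within each type. Ratios are compared between types and libraries, not between positions, since UMIs of different genes are not captured alike. Psmb8 over Psmb5 was 10.8 [8.12, 14.7] in C435A and 14.5 [11.5, 18.4] in WT mature DCs, and it was 1.29 [1.18, 1.41] and 0.958 [0.892, 1.03] in alveolar macrophages. Melanoma cells were at 0.135 [0.101, 0.176] in C435A and 0.0328 [0.023, 0.0455] in WT, below every immune type. Psmb9 over Psmb6 was lowest among immune types in alveolar macrophages, at 0.509 and 0.295, and in C1q macrophages, at 0.568 and 0.266. These were the 2 lowest immune types at this position in both libraries.

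Macrophages of the C435A library had higher ratios at all 3 positions. By point value so did neutrophils, classical monocytes and melanoma cells. In alveolar macrophages Psmb8 over Psmb5 was 1.29 in C435A against 0.958 in WT, Psmb9 over Psmb6 0.509 against 0.295, and Psmb10 over Psmb7 1.89 against 1.24. In C1q macrophages Psmb8 over Psmb5 was 2.49 [2.05, 3.03] in C435A and 1.35 [1.22, 1.49] in WT, and Psmb10 over Psmb7 2.29 [1.76, 3.01] and 1.17 [1.02, 1.35]. No interval of the C435A library overlapped that of the WT library in these 6 comparisons of macrophages. Psmb9 over Psmb6 had intervals apart in other types as well. It was 3.89 in C435A and 1.63 in WT neutrophils, 1.39 and 0.83 in classical monocytes and 1.18 and 0.743 in NK cells. In B cells it was 1.82 and 1.43, in CD4 T cells 1.83 and 1.42 and in melanoma cells 0.0777 and 0.0302. The summed T cell markers were also higher in the C435A macrophages, at 509 CPM in C435A and 233 CPM in WT C1q macrophages and 87.0 and 57.4 CPM in alveolar macrophages. The alveolar macrophage markers in C1q macrophages were at 193 CPM in C435A and 448 CPM in WT. Classical monocyte markers were at 146 CPM in C435A and 257 CPM in WT alveolar macrophages, and at 1072 and 957 CPM in C1q macrophages. Median depth was 7242 UMIs in C435A and 11463 in WT alveolar macrophages, and 9293 and 13847 in C1q macrophages. The part of these markers and of depth in the ratios was not tested. In alveolar macrophages the standard subunits were lower in C435A, Psmb5 at -0.51 and Psmb6 at -0.47 on the log2 scale of C435A over WT, while Psmb8 was at -0.081. In C1q macrophages all 3 standard subunits had intervals below 0, and the 3 inducible ones had intervals above 0. There Psmb5 was at 155 CPM in C435A and 213 CPM in WT, Psmb6 at 313 and 439 CPM and Psmb7 at 84.8 and 117 CPM. CD8 T cells of the C435A library had the lower ratio at 2 positions, with Psmb8 over Psmb5 at 3.85 [3.68, 4.03] in C435A and 4.58 [4.25, 4.94] in WT and Psmb10 over Psmb7 at 2.06 [1.93, 2.19] and 3.21 [2.89, 3.57], while Psmb9 over Psmb6 was 1.67 [1.59, 1.74] and 1.52 [1.41, 1.64].

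**Figure D2:**
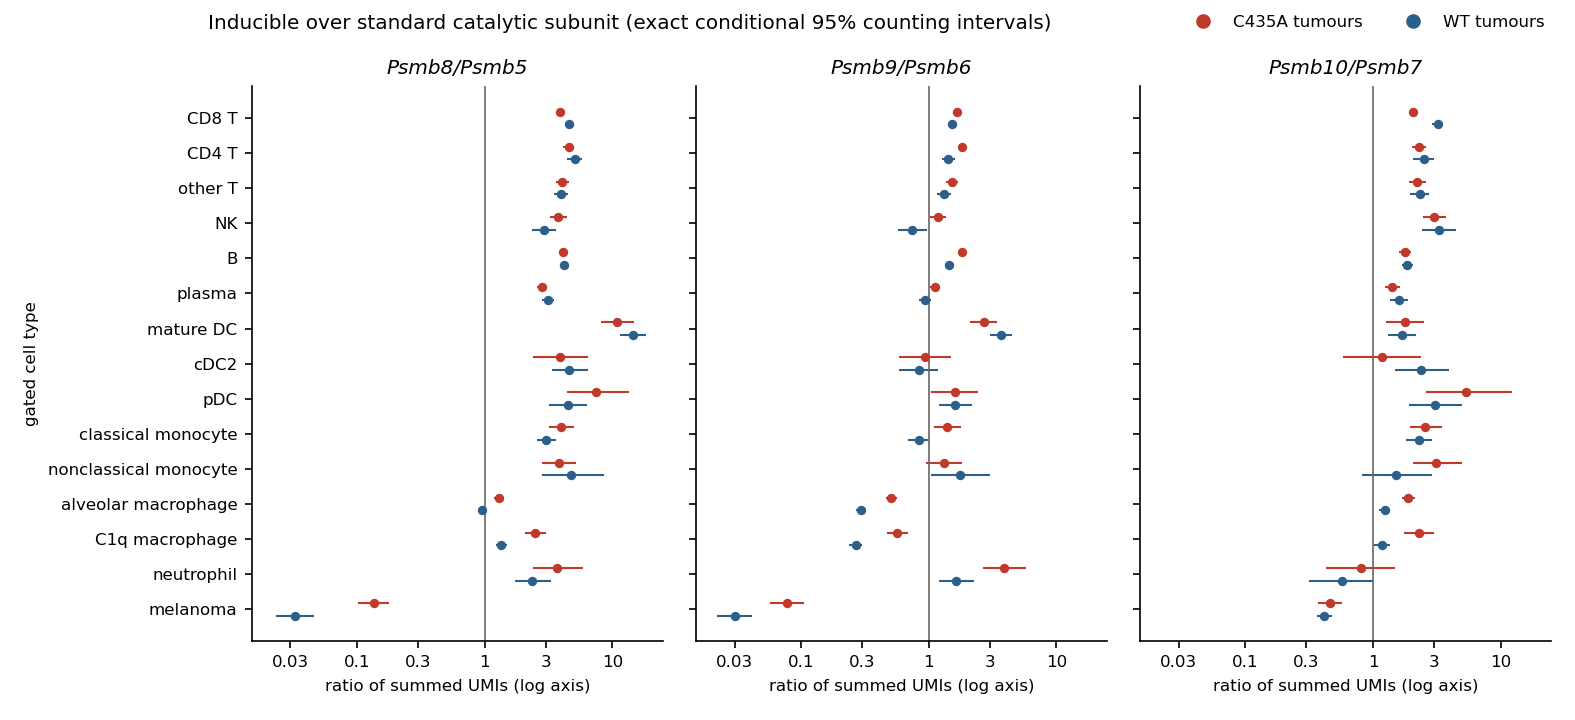
Ratio of summed UMIs of each inducible catalytic subunit to the standard subunit it replaces (log axis), in the 15 gated types, with C435A points above WT points and bars for exact conditional 95% intervals. The points of melanoma cells sat below those of every immune type at all 3 positions. For Psmb10 over Psmb7 their intervals overlapped those of neutrophils in both libraries. The C435A points of both macrophage types, neutrophils, classical monocytes and melanoma cells lay to the right of the WT points.

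Across the 30 combinations of 15 types and 2 libraries the members varied together to unequal degrees. These correlations describe types that share libraries and depth. Psme1 and Psme2 were closest over all 30 (Pearson r = 0.955, and 0.936 over the 28 combinations without melanoma), followed by Psmb9 and Tap1 (r = 0.948 and 0.874), the pair that shares its upstream bases. Psmb8 was almost as close over all 30 to Psmb9 (r = 0.944) and to Tap1 (r = 0.943). Without melanoma Psmb8 was closer to Psme1 (r = 0.919) and to Psme2 (0.875) than Psmb9 was to Tap1. Tap2 and Tapbp had r = 0.617, and without melanoma they were the least alike pair, with r = 0.0749. Outside the set, the genes whose profile was most like the mean of the members, among 6891 ranked, were H2-K1 (r = 0.904), Clec2d (0.895), Phf11b (0.891), H2-M3 (0.862), H2-T22 (0.858), H2-T23 (0.845), Gpr132 (0.844), Epsti1 (0.841), Apobec3 (0.835) and B4galnt1 (0.835). H2-K1 is a classical class I heavy chain and H2-M3, H2-T22 and H2-T23 are nonclassical ones. Without melanoma these 10 correlations ran from 0.622 for H2-T23 to 0.904 for Phf11b.

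Between the tumour genotypes, Psmb9 was the member whose interval lay above 0 in each of the 7 immune types with at least 200 cells per library, while in mature DCs it lay below 0. Over all kept cells it was at 293 CPM in C435A and 191 CPM in WT, a log2 ratio of 0.61 [0.57, 0.65]. That value pools types held in unlike shares, with CD8 T cells giving 13748405 UMIs in C435A and 6757747 in WT. The part of this mix was not tested. In those 7 larger types its log2 ratios ran from 0.28 in B cells to 0.94 in neutrophils. Neutrophils had 212 CPM in C435A against 111 CPM in WT (136 and 111 UMIs, 0.94 [0.57, 1.32]), and CD8 T cells 385 against 255 CPM (0.60 [0.52, 0.67]). In the other larger types it was at 385 against 279.6 CPM in CD4 T cells, 324 against 232 CPM in other T cells, 208 against 141 CPM in NK cells, 315 against 260.2 CPM in B cells and 117 against 93.7 CPM in alveolar macrophages. Of 4972 genes with at least 20 UMIs in each of the 7 types, 15 (0.302%) had intervals above 0 in all 7, and of the 8 members among these genes Psmb9 was the only one. The other 14 were Actg1, Arf5, Btf3, Ccl5, Gnb2, H2-Q7, Hmgb2, Itgal, Klrd1, Pfn1, Pnpla2, Rbm3, Slc25a5 and Tmsb4x. Ccl5 and Klrd1 are known from effector T and NK cells. The summed level of the 4 T cell markers in the gated neutrophils was 96.8 CPM in C435A and 95.7 CPM in WT, and in the gated B cells 44.0 and 28.6 CPM, with none of the 4 at 0. Markers of monocytes and NK cells were higher in the gated neutrophils of C435A, and those of B cells and C1q macrophages lower. The 5 nonclassical monocyte markers were at 123 CPM in C435A and 56.8 CPM in WT, with none at 0, the 4 classical monocyte markers at 49.985 CPM in C435A and 18.9 CPM in WT, with 2 at 0 in each, and the 5 NK markers at 18.7 CPM in C435A and 1.99 CPM in WT, with 1 at 0 in C435A and 3 in WT. B cell markers were at 31.2 and 67.8 CPM and C1q macrophage markers at 20.3 and 65.8 CPM, with none at 0. The part of these cells' RNA in the neutrophil ratios was not tested. The T cell markers in alveolar macrophages were at 87.0 and 57.4 CPM and in NK cells 79.6 and 60.8 CPM, and the part of T cell RNA in the ratios of B, NK and alveolar macrophage cells was not tested. Classical monocyte markers in alveolar macrophages were at 146 CPM in C435A and 257 CPM in WT, and their part was not tested either. Under median ratio scaling, which lowers the ratios of alveolar macrophages by 0.156, the interval of Psmb9 in that type held 0 (0.16 [-0.002, 0.32]).

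**Figure D3:**
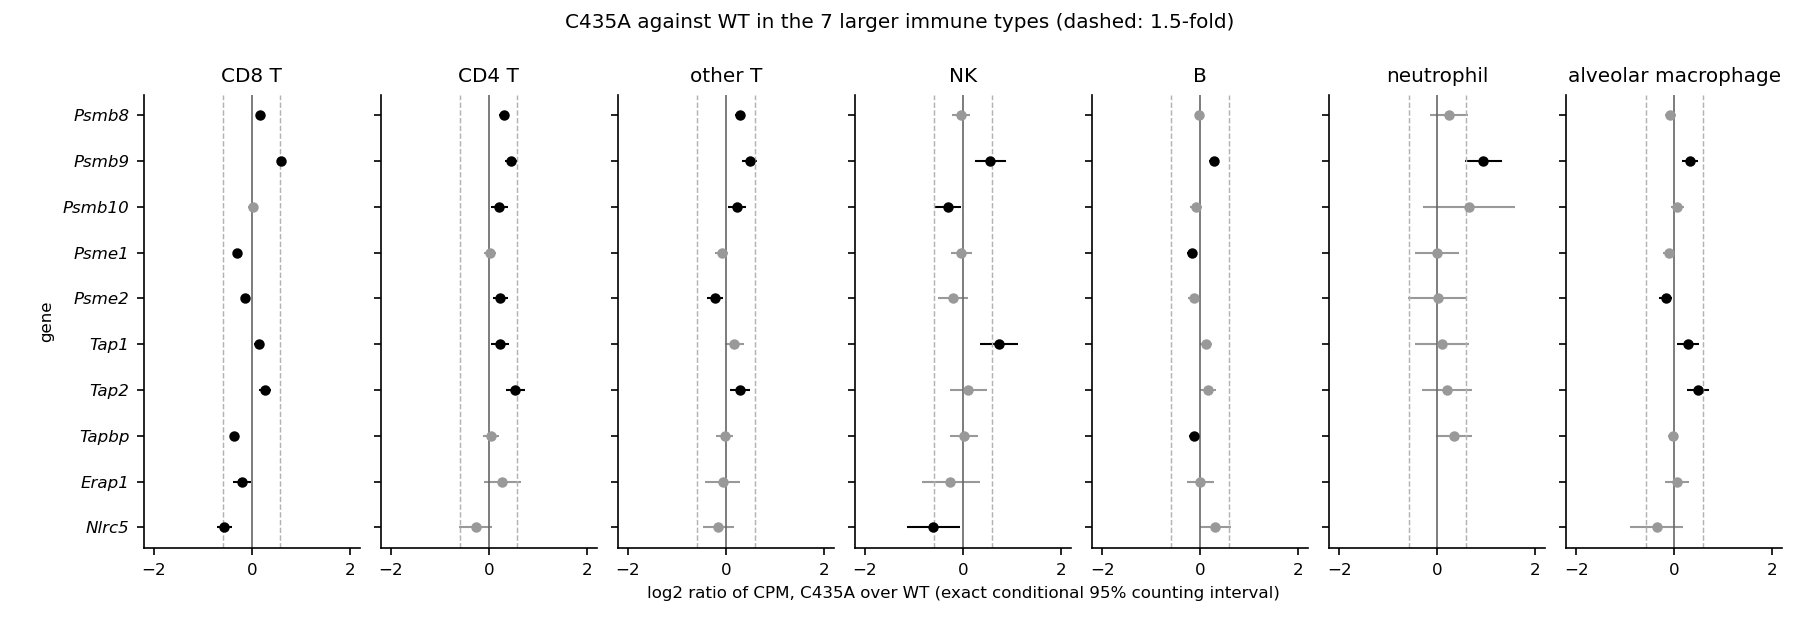
Log2 ratio of CPM, C435A over WT, of each of the 10 genes in the 7 larger immune types, with exact conditional 95% counting intervals (black where the interval excludes 0, grey where it holds 0) and dashed lines at 1.5-fold. Psmb9 lies to the right of 0 in every panel, and Erap1 and Nlrc5 had too few UMIs to plot in neutrophils.

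The members were called higher or lower where the level differed by at least 1.5-fold and the interval excluded 0. In CD8 T cells 1 of 10 was higher, Psmb9, against 16.2% of the 12431 genes tested, and 0 were lower, against 19.4%. With the naive, effector and cycling states of T cells given the same weight in both libraries Psmb9 was at 0.22 there, and 0 members were higher. The count was also 0 with each cell weighted alike and with no doublets removed. In NK cells 1 was higher, Tap1 (1.95% of 8525 genes), and 1 lower, Nlrc5 (3.41%), of which 0 stayed lower under TMM or median ratio scaling and with at least 5 UMIs of the own panel. In neutrophils 1 of 8 measured was higher, Psmb9 (5.4% of 5667 genes), and 0 were lower (2.44%). None was called in CD4 T cells, other T cells, B cells or alveolar macrophages, where 12.8%, 10.4%, 1.87% and 7.82% of genes were higher and 8.99%, 6.5%, 2.84% and 3.03% lower. The median log2 ratio of the members was -0.065 in CD8 T cells, where the median of all genes tested was -0.055, 0.23 against 0.067 in CD4 T cells, 0.071 against 0.045 in other T cells and -0.043 against -0.024 in NK cells. It was -0.013 against -0.006 in B cells, 0.22 against 0.12 in neutrophils and 0.015 against 0.12 in alveolar macrophages. Counting every interval clear of 0, members lay above in 4 and below in 5 cases in CD8 T cells (28.8% and 30.2% of genes), 6 and 0 in CD4 T cells (22.8% and 13.5%), 4 and 1 in other T cells (19.4% and 11.3%) and 2 and 2 in NK cells (3.96% and 5.74%). They did so in 1 and 2 cases in B cells (9.47% and 9.24%), 1 and 0 in neutrophils (10.7% and 3.71%) and 3 and 1 in alveolar macrophages (24.9% and 9.77%). Over all kept cells 1 member was higher (6.23% of genes) and 0 lower (14.2%), with 6 intervals above 0 (23.8%) and 1 below (32.6%). TMM scaling raised all ratios of CD8 T cells by 0.156 and lowered those of neutrophils by 0.142 and of alveolar macrophages by 0.125.

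Both transporter genes had point values above 0 in all 7 larger types. Tap1 in NK cells was at 158 CPM in C435A and 95.2 CPM in WT (0.73 [0.36, 1.13]). Its interval also lay above 0 in CD8 T cells (0.14 [0.041, 0.25]), CD4 T cells (0.23 [0.052, 0.40]) and alveolar macrophages (0.28 [0.046, 0.51]), the last of which held 0 under TMM scaling (0.15 [-0.079, 0.39]). Tap2 was at 196 CPM in C435A and 135 CPM in WT CD4 T cells (0.54 [0.34, 0.74]), and at 71.2 and 50.9 CPM in alveolar macrophages (0.48 [0.27, 0.70]). CD8 T cells (0.27 [0.15, 0.39]) and other T cells (0.28 [0.078, 0.48]) also had intervals above 0. With the T cell states weighted alike, Tap1 was at 0.031 in CD8 and 0.042 in CD4 T cells.

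Psmb8 and Psmb10 had clear intervals mainly in T cells. Psmb8 had intervals above 0 in T cells only among the larger types: 641 CPM in C435A and 569.6 CPM in WT CD8 T cells (0.17 [0.12, 0.23]), 680.1 and 551 CPM in CD4 T cells (0.30 [0.21, 0.40]) and 593 and 487 CPM in other T cells (0.28 [0.18, 0.39]). With the T cell states weighted alike, Psmb8 was at -0.042 in CD8 and -0.078 in CD4 T cells. Neither value stayed above 0, and they carry no interval. In the other 4 types its intervals held 0, although under TMM scaling that of alveolar macrophages lay below 0 (-0.21 [-0.32, -0.095]). Psmb10 was above 0 in CD4 T cells (0.21 [0.034, 0.39]) and other T cells (0.22 [0.034, 0.40]) and below 0 in NK cells (-0.31 [-0.57, -0.051]), where TMM scaling brought 0 into the interval (-0.24 [-0.50, 0.017]). Its interval in CD8 T cells held 0 as reported and lay above 0 under TMM scaling (0.17 [0.084, 0.26]). Psmb10 in CD4 T cells was at -0.029 with the states weighted alike, also without an interval, and so did not stay above 0 either.

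Most of the clear intervals of the remaining genes lay below 0. Psme1 was at 377 CPM in C435A and 467 CPM in WT CD8 T cells (-0.31 [-0.37, -0.24]) and at 288 and 324 CPM in B cells (-0.17 [-0.26, -0.083]). Psme2 was below 0 in other T cells (-0.22 [-0.38, -0.054]) and alveolar macrophages (-0.18 [-0.31, -0.045]) and above 0 in CD4 T cells (0.23 [0.087, 0.38]). Its interval below 0 in CD8 T cells (-0.15 [-0.23, -0.066]) held 0 under TMM scaling (0.009 [-0.072, 0.09]). Tapbp was at 187 CPM in C435A and 241 CPM in WT CD8 T cells (-0.36 [-0.45, -0.27]). Under TMM scaling the intervals of Psme1 (-0.23 [-0.35, -0.11]) and Tapbp (-0.15 [-0.25, -0.059]) in alveolar macrophages lay below 0, that of Tapbp in B cells (-0.10 [-0.21, 0.006]) held 0, and those of Tap1, Tap2 and Nlrc5 in B cells lay above 0. Erap1 had an interval clear of 0 in CD8 T cells only (-0.20 [-0.38, -0.022]), which held 0 under TMM scaling (-0.046 [-0.22, 0.13]). Its ratios in the other larger types measured ran from -0.26 in NK cells to 0.28 in CD4 T cells. Nlrc5 was at 57.0 CPM in C435A and 83.9 CPM in WT CD8 T cells (-0.56 [-0.71, -0.40]) and at 41.4 and 63.4 CPM in NK cells (78 and 48 UMIs, -0.62 [-1.15, -0.066]). The NK interval held 0 under median ratio scaling (-0.54 [-1.08, 0.01]).

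In C1q macrophages 3 of 10 members were higher against 7.08% of 9744 genes, and 0 were lower against 3.98%. Intervals lay above 0 for 6 (12.1%) and below for 0 (7.22%), with that of Psme1 among the 6 holding 0 under TMM scaling (0.13 [-0.077, 0.33]). Tap2 was at 96.2 CPM in C435A and 51.8 CPM in WT (0.89 [0.51, 1.27]), Tap1 at 126 and 81.2 CPM (0.64 [0.31, 0.95]) and Psmb9 at 178 and 117 CPM (0.61 [0.34, 0.87]). Under TMM scaling Tap1 (0.51 [0.19, 0.83]) and Psmb9 (0.48 [0.22, 0.75]) were no longer 1.5-fold higher, which left Tap2 as the 1 member called. The summed T cell markers in these 87 and 193 cells were at 509 CPM in C435A and 233 CPM in WT, with none of the 4 at 0. The alveolar macrophage markers were at 193 CPM in C435A and 448 CPM in WT, with none of the 7 at 0, and the part of either in the difference was not tested.

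Mature DCs, the type with the highest levels, went the other way. Psme1 was at 914 CPM in C435A and 1249 CPM in WT (-0.45 [-0.63, -0.28]), Psmb8 at 1270.4 and 1601 CPM (-0.33 [-0.48, -0.19]), Psme2 at 1033 and 1256 CPM (-0.28 [-0.45, -0.12]) and Psmb9 at 582 and 692 CPM (-0.25 [-0.47, -0.028]). These 4 of 10 had intervals below 0, against 6.75% of 5588 genes, none had one above 0 against 7.75%, and none reached 1.5-fold in either direction (5.78% and 4.44%). The 56 and 81 mature DCs held 412 CPM of T cell markers in C435A and 164 CPM in WT, with none of the 4 at 0, and the part of that RNA in the difference was not tested. In plasma cells 8 of 10 members had intervals above 0, but so did 34% of 9560 genes, and none lay below 0 (3.13%) or passed 1.5-fold (17.7% higher and 2.14% lower). TMM scaling brought 0 into 6 of those intervals, all but those of Psmb9 and Tap1. The median of the members, 0.28, lay below that of all genes, 0.33. In classical and nonclassical monocytes, cDC2 and pDCs every interval of a measured member (10, 10, 9 and 9) held 0. The shares of genes higher, lower, above 0 and below 0 there were 2.78%, 3.85%, 5.85% and 6.66% in classical monocytes, 4.28%, 3.26%, 5.35% and 4.67% in nonclassical monocytes. They were 5.03%, 4.55%, 6.04% and 6.29% in cDC2 and 2.72%, 3.27%, 3.53% and 4.36% in pDCs. TMM scaling put the interval of Psmb8 in cDC2 (-0.49 [-0.87, -0.12]) and of Psmb9 in pDCs (-0.48 [-0.94, -0.019]) below 0.

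The rest of the pathway was read from lists of genes. In CD8 T cells the constitutive proteasome was higher in the C435A library: all 11 other 20S subunits and all 17 subunits of the 19S regulator had intervals above 0, with medians of 0.64 and 0.62, against 28.8% of all genes. The standard catalytic subunits Psmb5 (166 CPM in C435A and 124 CPM in WT, 0.42 [0.30, 0.53]), Psmb6 (231 and 168 CPM, 0.46 [0.36, 0.56]) and Psmb7 (110.3 and 69.8 CPM, 0.66 [0.51, 0.81]) were all above 0. Cycling cells, which gave 66.3% of the CD8 T cell UMIs in C435A and 8.14% in WT, moved with these counts, and their part was not tested. In CD4 T cells 11 of 11 other 20S subunits and 12 of 17 regulator subunits had intervals above 0 (22.8% of genes), and the same counts held in other T cells (19.4%). In NK cells 1 of 11 and 0 of 17 did (3.96%), in B cells 7 of 11 and 4 of 17 (9.47%) and in alveolar macrophages 0 of 11 and 0 of 17 (24.9%), with 4 and 6 below 0 (9.77%).

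The partners of the loading complex were mixed in CD8 T cells. Of 7, 3 were above 0 (28.8% of genes), led by the chaperone Pdia3 (374 CPM in C435A and 198 CPM in WT, 0.92 [0.83, 1.01]), and 3 below (30.2%), among them B2m (-0.24 [-0.27, -0.22]) and H2-K1 (-0.26 [-0.28, -0.23]). In neutrophils 3 of 6 measured were higher by 1.5-fold (5.4% of genes), the class I genes H2-K1 (2252 CPM in C435A and 899.5 CPM in WT, 1.32 [1.20, 1.45]), B2m (2185 and 1346 CPM) and H2-D1 (3054 and 1883 CPM). Among the immune types, the ratios of Psmb9, H2-K1, B2m and H2-D1 were all largest in neutrophils, where monocyte and NK markers were also higher in C435A. Irf1, an interferon-induced transcription factor among the inducers and transactivators, was at -0.39 [-0.51, -0.26] in CD8 T cells, 0.49 [0.22, 0.76] in alveolar macrophages and 0.51 [0.19, 0.82] in neutrophils. Over the 7 larger immune types, the medians of the 8 assembly factors and other activators ran from 0.013 in CD4 T cells to 0.24 in neutrophils. Those of the 6 other peptidases ran from -0.30 in neutrophils to 0.20 in other T cells. In neutrophils 3 genes of each of these 2 lists were measured. Smaller types reached beyond these ranges, with the assembly list at -0.34 in cDC2 and 0.47 in plasma cells.

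T cells of the libraries differed in state, and the levels of several members differed between states. Cells were called naive, effector or cycling from panels of marker UMIs that hold no member. In the C435A library 532 CD8 T cells were naive, 749 effector and 901 cycling, and in the WT library 1335, 494 and 60. Cycling cells gave 66.3% of the CD8 T cell UMIs in C435A and 8.14% in WT. Within the C435A library Psmb9 in CD8 T cells was at 432 CPM in cycling and 244 CPM in naive cells (log2 ratio 0.82 [0.67, 0.97]), and within the WT library at 317 and 247 CPM (0.36 [0.12, 0.59]). Tapbp was lower in cycling than in naive CD8 T cells in both libraries (-0.28 [-0.45, -0.12] in C435A and -0.42 [-0.73, -0.13] in WT), as was Psme1 (-0.21 [-0.33, -0.093] and -0.22 [-0.43, -0.026]). In the C435A library 3 of 10 members were above 0 in this comparison and 3 below, against 30.5% and 26.3% of genes, and in the WT library 2 and 2, against 21.8% and 11.5%.

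Effector over naive CD8 T cells gave 3 members above 0 and 1 below in C435A (21.7% and 16.6% of genes) and 1 and 0 in WT (14.8% and 7.49%). In CD4 T cells, effector exceeded naive cells, with the interval above 0, for 6 of 10 members in the C435A library (18.8% of genes) and 3 in the WT library (16.5%). Psmb8 was at 676 CPM in effector and 444 CPM in naive CD4 T cells of the C435A library (0.61 [0.40, 0.82]) and at 762 and 448 CPM in those of the WT library (0.77 [0.55, 0.98]). Cycling over naive CD4 T cells gave 6 above and 1 below in C435A (26% and 15.5%) and 5 and 0 in WT (21.2% and 11.4%). There Psmb9 was at 0.82 [0.55, 1.11] in C435A and 0.95 [0.67, 1.22] in WT, while Nlrc5 was at -0.94 [-1.59, -0.28] in C435A and -0.21 [-0.99, 0.51] in WT.

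Within a state, the ratio of Psmb9 between the genotypes was smaller than over all CD8 T cells. In naive CD8 T cells Psmb9 was at 244 CPM in C435A and 247 CPM in WT (-0.014 [-0.18, 0.15]), and 4 members, Psmb8 (-0.23 [-0.35, -0.11]), Psmb10 (-0.35 [-0.55, -0.16]), Psme1 (-0.20 [-0.33, -0.074]) and Psme2 (-0.29 [-0.46, -0.13]), had intervals below 0, against 5.53% of genes. None was above 0, against 6.24%. In effector CD8 T cells Psmb9 was at 321 and 256 CPM (0.33 [0.16, 0.49]), Tap2 at 0.39 [0.14, 0.64] and Tapbp at -0.41 [-0.60, -0.22]. There 3 members were above 0 (13.5% of genes) and 2 below (13.2%). None was called higher or lower in naive cells (1.97% and 2.31%) or effector cells (6.11% and 8.05%). In cycling CD8 T cells Psmb9 was at 432 and 317 CPM (0.45 [0.23, 0.67]) and Nlrc5 at 46.5 and 76.4 CPM (-0.72 [-1.17, -0.22]), the 1 member called lower there (7.35% of genes). In CD4 T cells the intervals of Psmb9 held 0 in all 3 states, from 0.017 [-0.23, 0.27] in cycling to 0.25 [-0.069, 0.57] in effector cells. Tap2 was above 0 in naive CD4 T cells, at 178 CPM in C435A and 114 CPM in WT (0.64 [0.25, 1.02], the 1 member called higher, 3.34% of genes), and in effector CD4 T cells (0.46 [0.02, 0.92]). With the 3 states weighted alike, the log2 ratio of Psmb9 was 0.22 in CD8 T cells and 0.14 in CD4 T cells, against 0.60 and 0.46 as the states lay, and that of Tap2 0.26 and 0.47, against 0.27 and 0.54. Psme2 in CD4 T cells was at 0.031 with the states weighted alike, against 0.23, and Nlrc5 in CD8 T cells at -0.27, against -0.56.

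**Figure D4:**
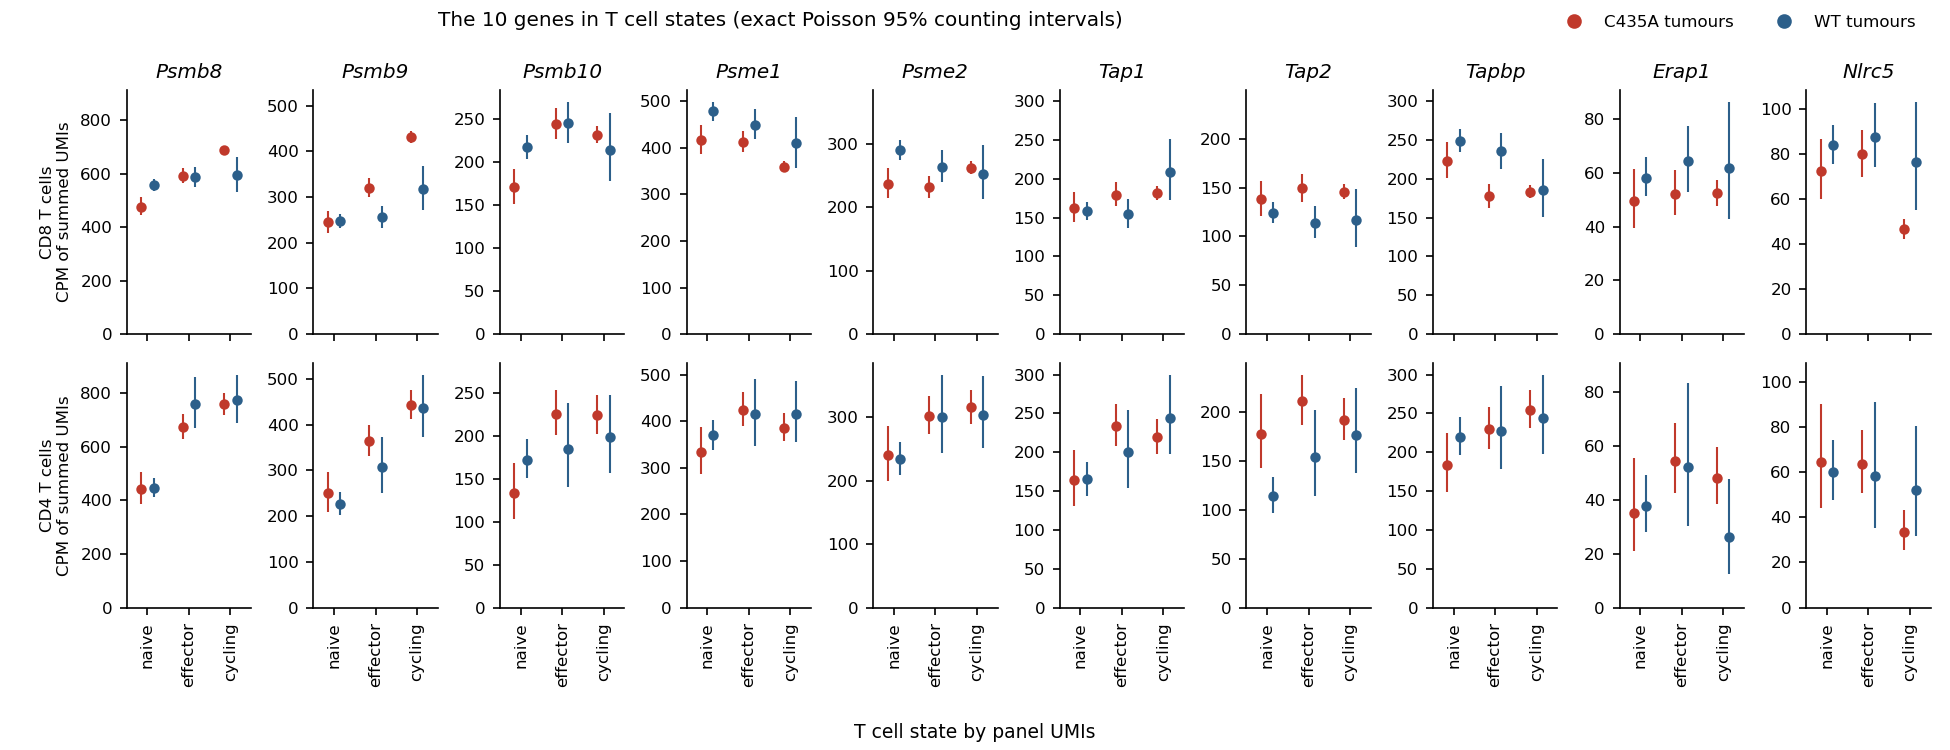
CPM of summed UMIs of each of the 10 genes in naive, effector and cycling CD8 T cells (top) and CD4 T cells (bottom), with C435A left of WT in each pair and bars for exact Poisson 95% intervals. The Psmb9 points of naive CD8 T cells coincide between the genotypes at 244 and 247 CPM, while those of effector and cycling cells are higher in C435A.

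Cells with at least 2 UMIs over Ifit1, Ifit3, Ifit3b, Rsad2, Oasl1 and Cmpk2, genes induced by type I interferon, were compared with the other cells of the type in the same library. In the C435A library 3 of 10 members were above 0 in the 59 such CD8 T cells, against 4.66% of genes, and in the WT library 7 of 10 in 101 cells, against 4.67%. The same count was 0 in 27 CD4 T cells of the C435A library (4.1% of genes) and 6 in 38 of the WT library (4.6%), and 7 in 30 alveolar macrophages (6.63%) and 5 in 26 C1q macrophages (4.72%) of the WT library. In B cells it was 2 in C435A (3.93%) and 3 in WT (2.74%). In other T cells it was 2 in C435A (4.2%) and 1 in WT (3.21%), and in the WT library 1 of 8 in neutrophils (5.63%), 0 in classical monocytes (4.73%) and 2 in melanoma cells (8.32%). None was below 0 in any type with at least 20 such cells. In CD8 T cells their median depth was 4043 UMIs, with 4559 in the rest, in the C435A library, and 3459 and 3140.0 UMIs in the WT library. They were deeper than the rest in C1q macrophages of the WT library (20924 and 12357 UMIs), alveolar macrophages of the WT library (13505 and 11417) and B cells of the C435A library (3596 and 2092), and the part of depth in these counts was not tested. Nlrc5 in CD8 T cells of the WT library was at 147 CPM in these cells and 80.1 CPM in the rest (0.88 [0.45, 1.28]), and Tap1 at 249 and 157 CPM (0.67 [0.35, 0.98]). Psmb9 in alveolar macrophages was at 168 and 88.3 CPM (0.92 [0.55, 1.28]). The difference between the libraries in these counts was not tested, and fewer such cells give wider intervals.

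Melanoma cells that came through the CD45 sort were at the bottom of the order. The 56 C435A and 99 WT cells had medians of 33678 and 47839 UMIs. Psmb8 was at 29.0 CPM in C435A and 8.001 CPM in WT (60 and 37 UMIs, 1.86 [1.24, 2.49]), and Psmb9 at 23.2 and 9.51 CPM (48 and 44 UMIs, 1.28 [0.66, 1.91]). These 2 of 10 members were called higher, against 3.96% of 10940 genes, and none lower, against 3.24%. Psme1 (84.0 and 65.3 CPM, 0.36 [0.085, 0.64]) and Tapbp (45.9 and 33.7 CPM, 0.44 [0.059, 0.82]) were above 0 without reaching 1.5-fold (9.12% of genes were above 0 and 9.63% below). Psmb10, at 64.2 CPM in C435A and 68.1 CPM in WT (-0.086 [-0.39, 0.21]), was the inducible subunit closest to its immune levels. Nlrc5 had 13 and 20 UMIs in all, 6.27 and 4.32 CPM.

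Leukocyte genes were also higher in the C435A melanoma cells, and their part in the Psmb8 and Psmb9 values was not tested. The summed UMIs of the leukocyte genes Ptprc, Cd74, Cd52, Coro1a and Laptm5 were at 375 CPM in C435A and 180.1 CPM in WT melanoma cells. Ptprc gave 81 of these 777 UMIs in C435A and 87 of 833 in WT. Whether the UMIs of these genes came from leukocytes or from the melanoma cells themselves was not tested. The 3 cells richest in Psmb8 held 61.7% of its 60 UMIs in C435A and had 52, 161 and 39 leukocyte UMIs, and 35.1% of its 37 UMIs in WT, with 171, 16 and 15. For Psmb9 the 3 richest cells held 50% of its 48 UMIs in C435A, with 161, 19 and 11 leukocyte UMIs. In WT they held 27.3% of its 44 UMIs, with 171, 52 and 18. In the 42 C435A and 81 WT cells with under 10 leukocyte UMIs, which were at 105 and 96.6 CPM of these genes, Psmb8 was at 6.87 and 3.01 CPM (9 and 10 UMIs, 1.19 [-0.29, 2.64]) and Psmb9 at 11.4 and 7.53 CPM (15 and 25 UMIs, 0.60 [-0.42, 1.58]), both with 0 in the interval and Psmb8 under the 20 UMIs asked of a measured gene. Tapbp was the 1 of 8 measured members called higher in those cells, at 59.5 and 34.9 CPM (0.77 [0.34, 1.20]), against 4.85% of genes, while in the cells with 10 or more it was at 22.3 and 30.7 CPM. The cut at 10 was chosen after the values were seen. Of the loading partners, H2-K1 (235 CPM in C435A and 151 CPM in WT, 0.63 [0.46, 0.80]) and H2-D1 (264 and 163 CPM, 0.69 [0.53, 0.85]) were called higher over all gated melanoma cells, in which UMIs of the same leukocyte genes were present.

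**Figure D5:**
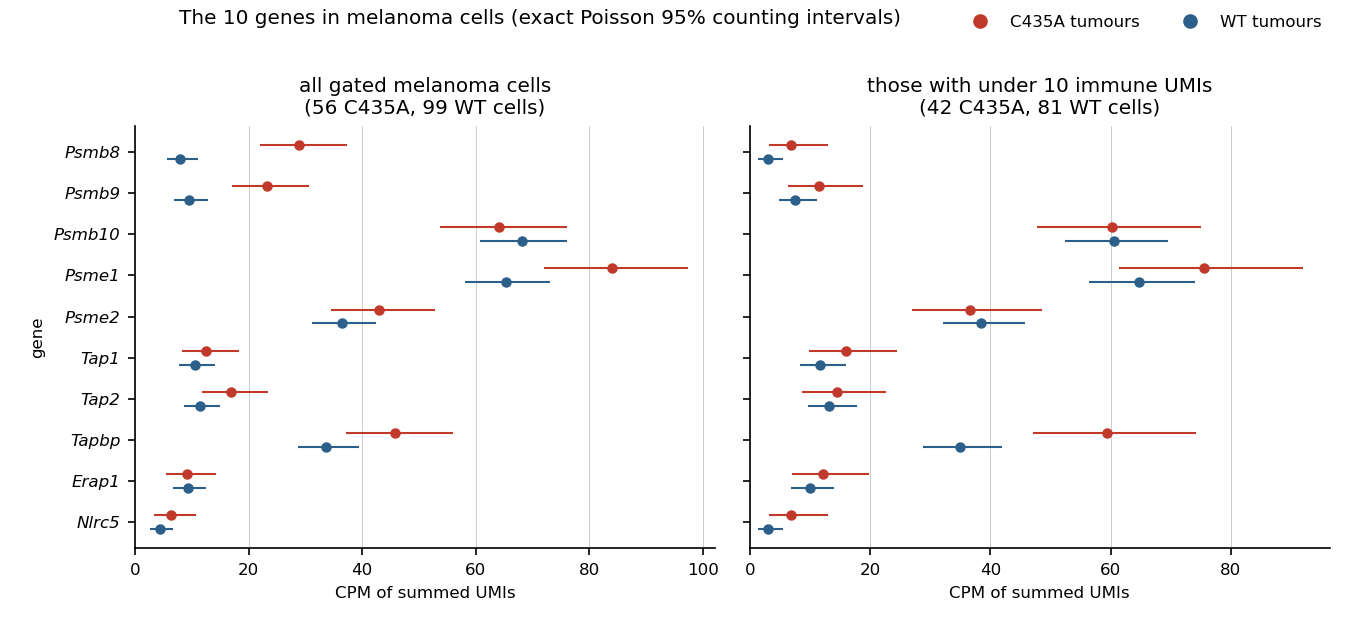
CPM of summed UMIs of each of the 10 genes in all gated melanoma cells (left) and in those with under 10 UMIs of 5 leukocyte genes (right), with C435A points above WT points and bars for exact Poisson 95% intervals. The gaps of Psmb8 and Psmb9 between the genotypes on the left narrow to overlapping intervals on the right, where Tapbp is the gene with intervals apart.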

How the data were processed

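The values are counts of UMIs per gene and barcode in 2 matrices as the authors deposited them. The genome build is GRCm38 per the submitters' processing notes. The matrices were made by Cell Ranger 7.2.0 per the file headers. Neither source names the annotation release or the intron setting. Per the labels' protocols, both BD Rhapsody and 10x Chromium 3′ capture are named, so the platform is uncertain. Barcodes were kept with at least 200 genes, 500 UMIs and under 20% mitochondrial UMIs (102 and 157 failed in C435A and WT), and Scrublet scores (scanpy 1.11.5) removed 844 and 800 predicted doublets, 0.8% per 1000 barcodes.

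Cells were gated by 15 marker panels: at least 3 UMIs from 2 genes of the own panel and 3 times every other, and for melanoma at least 20 UMIs from 3 genes. T cells with UMIs of Cd8a or Cd8b1 and none of Cd4 were CD8 T, the reverse CD4 T, and the rest other T. Counts were summed per type and library. Levels have exact Poisson and log2 ratios exact conditional 95% intervals (scipy 1.17.1). Only the ratio intervals were tried on simulated counts. Those counts were Poisson, as the intervals assume, so the trial cannot speak to spread between cells. A gene was measured with at least 20 UMIs over both libraries. Where a library held 0 UMIs, 3 stood in. TMM factors came from edgeR 4.0.16. All 10 members are named in each larger type, and the genes most like them are the 10 with the highest Pearson correlation of log2(CPM + 10) among genes reaching 50 CPM. The list of inducers is not reported here apart from Irf1. The members and lists were chosen with earlier results of these data known.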

Additional observations from a re-analysis of the deposited data

Results flagged for a closer look

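Psmb10 and Psme2 were picked out because their ratios between the tumour genotypes lay on opposite sides of 0 in 2 types. The log2 ratio of Psmb10, C435A over WT, was 0.22 in other T cells, with levels of 205 CPM in C435A and 176 CPM in WT, and -0.31 in NK cells, with 198 CPM in C435A and 246 CPM in WT. That of Psme2 was 0.23 in CD4 T cells, with 304 CPM in C435A and 258 CPM in WT, and -0.22 in other T cells, with 225 CPM in C435A and 261 CPM in WT. The interval of Psmb10 in NK cells held 0 under TMM scaling (-0.24 [-0.50, 0.017]). With the T cell states weighted alike, Psme2 in CD4 T cells was at 0.031. With 1 library per genotype the difference between the types was not tested for either gene.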

How the results depend on the processing

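The levels rest on summed UMIs of 1 library per genotype, so deep cells and the mix of states weigh on them, and rare types have wide intervals. No paired analysis was possible because each genotype has 1 library, and for the same reason no replicate could be left out. Giving each cell the same weight moved 38 of 160 levels beyond their counting interval. None of the 48 ratios of inducible to standard subunit moved by more than its interval with at least 5 UMIs of the own panel.

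Of the medians over members, that of CD8 T cells was -0.065 as reported and 0.091 under TMM scaling, 0.10 under median ratio scaling and -0.15 with T cell states weighted alike, and that of CD4 T cells was 0.23 as reported and 0.024 with states weighted alike. The counts of members called higher in CD8 T cells, 1 as reported, were 0 with no doublets removed, with cells or states weighted alike and at a fold of 2, and 1 was lower with the own panel at 10 times every other. In NK cells, 1 higher and 1 lower as reported, 2 were higher and 0 lower at 10 times every other panel, under TMM and under median ratio scaling, 2 were higher with cells weighted alike, 0 lower with 5 UMIs of the own panel, and 0 higher and 0 lower at a fold of 2. In CD4 T cells 1 was higher, against 0 as reported, at 10 times every other panel and with cells weighted alike. In alveolar macrophages 1 was lower, against 0, with cells weighted alike, and in neutrophils 0 were higher, against 1, at a fold of 2. In melanoma cells 2 were called higher as reported, Psmb8 and Psmb9. With members at 100 UMIs or more 0 were called. With cells of 2 or more leukocyte UMIs left out 0 were called, and 1 member was measured. With those of 10 or more left out, an alternative chosen after seeing the data, 1 was called. That was Tapbp, and neither Psmb8 nor Psmb9 stayed called. Of the counts, 132 stayed within 1.5 times the reported one, and 65 medians stayed within the counting range of the reported one, among them those with doublets kept, with interferon panel cells left out and without the deepest melanoma cell of each library.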
